A study of Mus musculus with 6 samples.

Results

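The genes described here encode the subunits of the 5 oxidative phosphorylation complexes. They were chosen by symbol alone, from protein-coding genes named Nduf, Sdh, Uqcr, Cyc1, Cox4 to Cox8, Atp5, mt-Nd, mt-Cytb, mt-Co or mt-Atp. Of 98 annotated mouse genes with such names, 95 had values, among 24016 genes in all. Of these, 82 lie in the nuclear genome (36 of complex I, 4 of complex II, 9 of complex III, 16 of complex IV and 17 of complex V) and 13 in the mitochondrial genome (7, 0, 1, 3 and 2). Cox8b, Cox8c and a second entry for Atp5o had no values. The choice by name also took in Atp5s, which is no longer counted as a subunit, Cox7a2l, which helps complexes III and IV to associate, and Ndufa4, which was first assigned to complex I and later to complex IV.

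RNA-seq compared 3 libraries of vehicle-treated cells with 3 libraries of cells given 100 nM corticosterone, the main active glucocorticoid of rodents, for 24 h. The cells were MC3T3-E1 subclone 4, an osteoblast line from mouse calvaria, with the genotype given as wild type. Both groups had been differentiated for 6 d with β-glycerophosphate (10 mM) and ascorbic acid (50 µg/ml), and both received 10 nM calcitriol, so every comparison is made in calcitriol-treated cells of 1 clonal line. The study's methods call the 3 replicates of each group biological, and the labels do not say how the cultures were separated.

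In oxidative phosphorylation, complexes I and II pass electrons from NADH and succinate to ubiquinone, complex III passes them on to cytochrome c, and complex IV to oxygen. Complexes I, III and IV pump protons across the inner mitochondrial membrane, and complex V, the ATP synthase, uses the returning protons to make ATP. The catalytic cores of complexes I, III and IV and the proton channel of complex V contain proteins made from mitochondrial DNA, while the other subunits and all of complex II are made from nuclear genes. In osteoblasts these complexes work beside an active glycolysis.

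The libraries held 16020401 to 25638645 reads counted on genes, and each corticosterone library (16020401 to 18992332 reads) held fewer than each vehicle library (19076586 to 25638645). The part of this depth difference in the results was not tested. Values below are normalized reads, that is, reads divided by a size factor of each library, and 3 reads correspond to 2.32 to 3.84 of them. The glucocorticoid targets Tsc22d3, Fkbp5, Per1 and Sgk1 were higher in all corticosterone libraries, with log2 fold changes of 1.49 to 2.75. All 10 osteoblast markers were present, of which 8 were called lower with corticosterone and 1, Spp1, higher (log2 fold change 0.23). Chondrocyte markers (5 of 6 with values) summed to 3557 to 3964 with vehicle and 3001 to 3023 with corticosterone, where Col2a1 (-0.80) and Sox9 (-0.16) were called lower and Col10a1 (0.73) higher. Muscle markers had values for 5 of 8 genes and summed to 45.5 to 62.1 with vehicle and 64.2 to 79.5 with corticosterone, and none was called. Macrophage markers (3 of 6 with values) summed to at most 151 with vehicle and 145 with corticosterone. Adipocyte markers (2 of 7) summed to 7.72 to 21.1 and 108 to 133, nearly all of it from Fabp4. The part of these changes in cell markers in the subunit results was not tested. In bulk RNA, a change in the make-up of the culture and a change in RNA per cell cannot be told apart.

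Subunit genes were expressed over a wide range, which was compared per kilobase of the principal transcript. Of the 82 nuclear genes, 77 had a mean of at least 10 normalized reads. Among these, Atp5b (the catalytic beta subunit of ATP synthase) and Cox6a1 had the highest levels, at 11173 and 11089 normalized reads per kb over the 6 libraries, followed by Cox8a at 9471, Ndufa4 at 6761 and Atp5e at 6367. The lowest were Ndufb2 at 47.4 and Atp5s at 86.4. Part of the difference between genes depends on the transcript chosen: that of Ndufb2 is 4371 bases long, and that of Atp5b 1916. The mitochondrial mt-Co1, the catalytic subunit of complex IV, stood at 283992 per kb.

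Corticosterone treatment left most nuclear subunit genes within the spread of the replicates, and those that passed the test had risen. Of the 82 genes, 15 were called higher and 0 lower (limma, adjusted p under 0.05 over all genes), where 8.49% of all genes were called higher and 8.2% lower. At an unadjusted p under 0.05, 1 nuclear gene was lower, and edgeR called 17 higher and 0 lower and DESeq2 15 higher and 0 lower. Calls are more frequent among abundant genes: of the 6896 genes with a mean of at least 500 normalized reads, 20.6% were called higher and 16.6% lower, 37.2% in all. Of the 69 nuclear subunit genes above that level, 14 (20.3%) were called higher and 0 lower. The share called higher was therefore near the background of equally abundant genes, while no nuclear member was called lower. No nuclear gene passed the study's additional limit of an absolute log2 fold change over 1, which 2.78% of all genes and 1.61% of those with a mean of at least 500 did. Between groups, 26 of the 82 genes did not overlap, 23 of them higher and 3 lower (Ndufb2, Cox6b1 and Atp5s), where 29.6% of all genes did not. Of the 69 abundant members, 21 were apart and higher and 1 apart and lower, where 28.2% and 25.2% of equally abundant genes were.

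**Figure D1:**
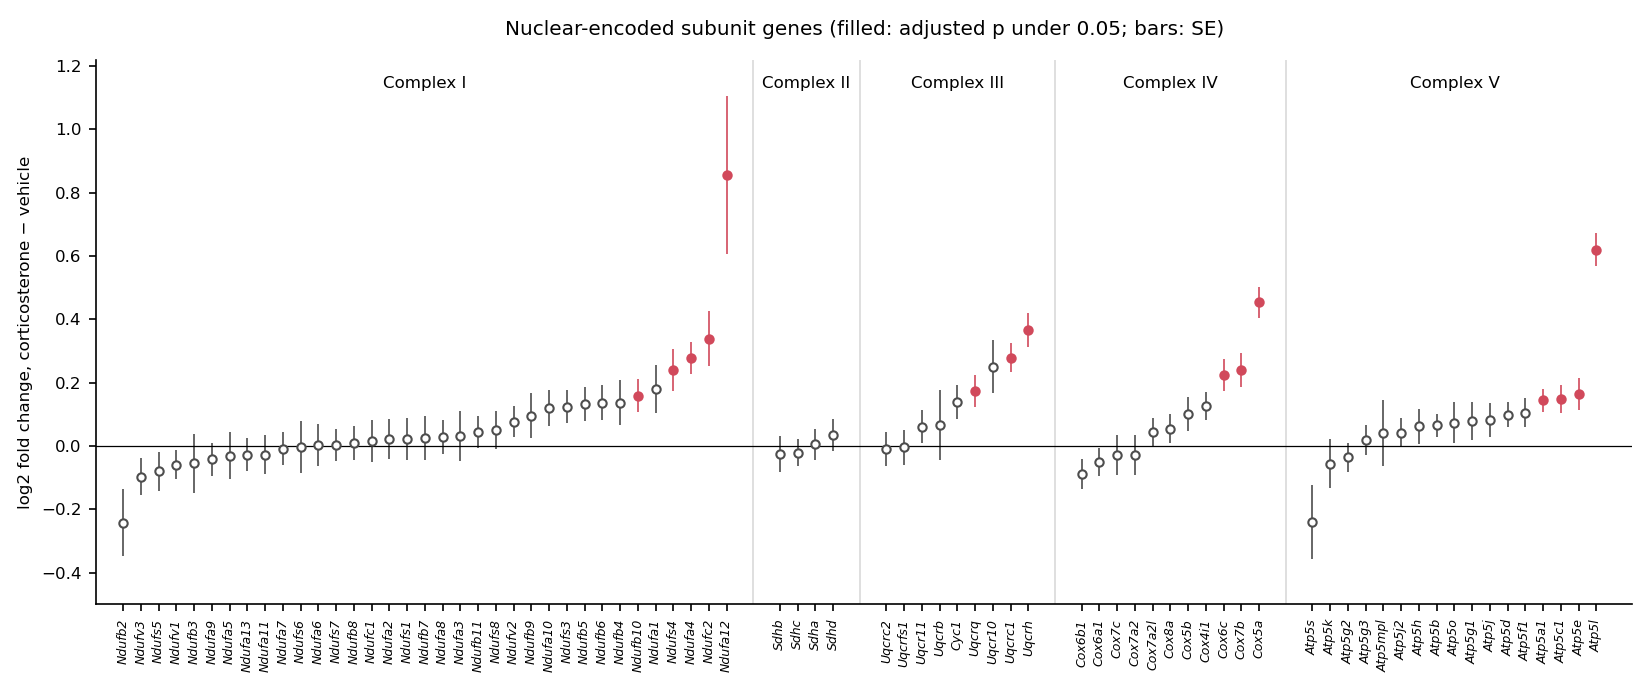
The log2 fold change of the nuclear-encoded subunit genes with a mean of at least 10, 1 uncalled gene not shown (y axis, bars are SE, n = 3 per group), by complex along the x axis. The 15 called genes are filled and all lie above 0, from 0.14 (Atp5a1) to 0.86 (Ndufa12), while the 4 genes of complex II lie between -0.03 and 0.03.

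Over the 82 nuclear genes the log2 fold change had a median of 0.06, and 59 genes (72.0%) lay above 0. Over all genes the median was -0.01 and 48.6% lay above 0 (50.8% of those with a mean of at least 500). Over the 77 members with a mean of at least 10 the median was 0.05. By complex the median was 0.03 for complex I, -0.01 for complex II, 0.14 for complex III, 0.11 for complex IV and 0.07 for complex V. These shifts are small: the median of single libraries, relative to each gene's mean, ran from -0.04 to -0.01 with vehicle and from 0.002 to 0.08 with corticosterone. The nuclear members have short transcripts, with a median of 824 bases against 3294 for all genes with a mean of at least 500. After each library was corrected for transcript length and GC content, the nuclear median was -0.003 and the calls were 9 higher and 1 lower (Cox6b1). With libraries scaled to the same total, 9 nuclear genes were called higher and 0 lower, and the calls over all genes moved from 2040 higher and 1970 lower to 1703 and 2521.

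The largest increase among the nuclear genes whose groups did not overlap was that of Atp5l, which encodes subunit g of the membrane part of ATP synthase (chr9:44912557-44920742, minus strand, mm10, as are all coordinates here). Its normalized reads were 2045, 2336 and 2040 with vehicle and 3337, 3257 and 3255 with corticosterone. The lowest treated library lay far above the highest vehicle library. The mean was 53.4% higher and the log2 fold change 0.62 ± 0.05 (SE, n = 3 per group, limma adjusted p = 2.47e-07).

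The processed pseudogene Gm10221 on chromosome 5 matches the Atp5l transcript at 309 of 309 aligned bases. The start of the aligned part is shown because reads from within it cannot be assigned to either gene by sequence (sequences here from GENCODE transcripts, gene at transcript positions 82 to 171, copy at chr5:24581773-24581862, minus strand).
Atp5l: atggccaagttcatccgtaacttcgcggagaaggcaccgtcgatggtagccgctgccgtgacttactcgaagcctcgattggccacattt
Gm10221: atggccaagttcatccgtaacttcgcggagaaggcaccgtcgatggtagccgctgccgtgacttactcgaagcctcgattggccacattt

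In all, 85.4% of the 31-base words of the Atp5l transcript also occur in transcripts of other genes. The reads assigned to Gm10221 rose as well, from 632, 670 and 589 to 995, 1023 and 1050. When Atp5l was summed with the 8 pseudogenes that had values and shared at least 10% of its words, the log2 fold change was 0.64 (limma adjusted p = 8.25e-08). Some exons of Atp5l also overlap the antisense gene Gm30934, which held 13.8 to 21.7 normalized reads with vehicle and 25.6 to 43.1 with corticosterone.

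Cox5a, a subunit on the matrix side of complex IV (chr9:57521274-57532426, plus strand), was at 1026, 1032 and 1025 with vehicle and 1425, 1394 and 1403 with corticosterone. The 3 libraries of each group were nearly equal, and the groups were well apart. The mean was 37.0% higher (log2 fold change 0.45 ± 0.05, SE, limma adjusted p = 3.59e-06). The transcript overlaps the bidirectional non-coding gene Gm26631, which held only 4.05 to 15.0 normalized reads.

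Complex III contributed a pair of clear increases. Uqcrh, the hinge protein between cytochrome c1 and cytochrome c (chr4:116066965-116075071, minus strand), rose from 1375, 1321 and 1279 to 1677, 1634 and 1818. Uqcrc1, a large core subunit facing the matrix (chr9:108936633-108949623, plus strand), rose from 2784, 2616 and 2788 to 3319, 3188 and 3427. In neither gene did the groups overlap. Their log2 fold changes were 0.37 ± 0.05 (limma adjusted p = 1.03e-04) and 0.28 ± 0.05 (limma adjusted p = 2.95e-04). Uqcrc2, the partner core subunit of Uqcrc1 in the complex, was at 1671 to 1871 with vehicle and 1672 to 1849 with corticosterone, and its log2 fold change of -0.01 did not pass the test.

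**Figure D2:**
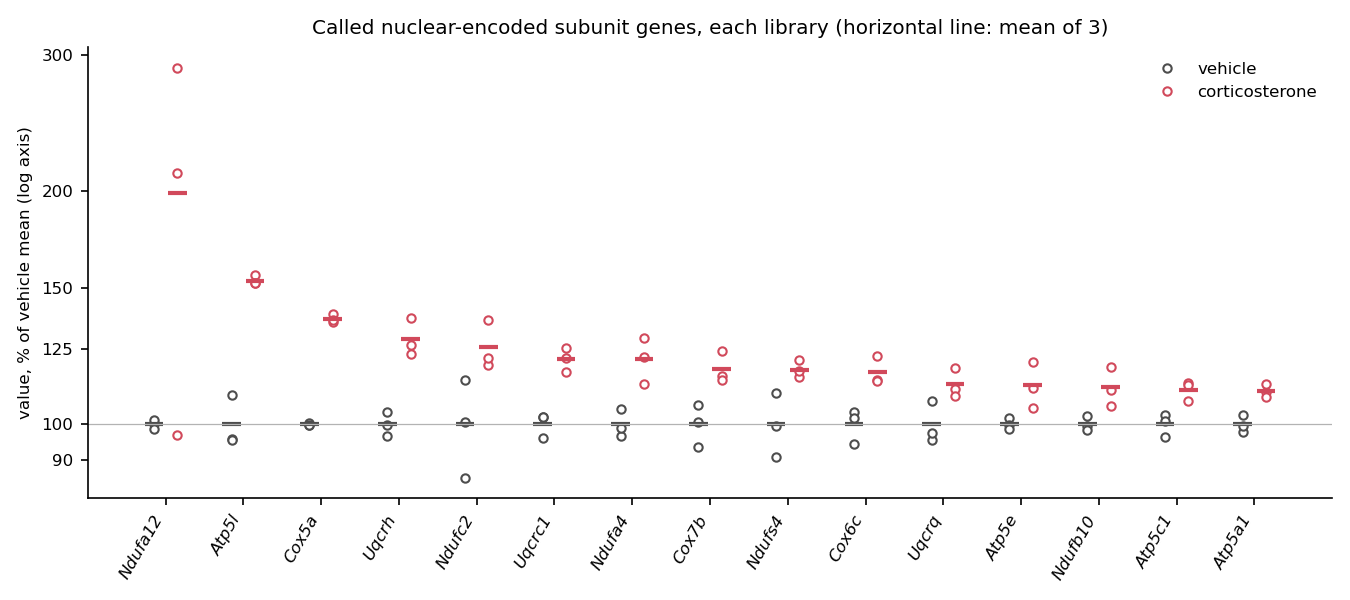
Normalized reads of the 15 called nuclear-encoded subunit genes in each library, as a percentage of the gene's vehicle mean (log axis); horizontal lines are means of 3 libraries. In 14 genes the groups do not overlap, and in Ndufa12 1 corticosterone library lies below the vehicle libraries.

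Atp5l, Cox5a, Uqcrh and Uqcrc1 were called in all 6 fits that left out 1 library. The other 11 calls were lost in at least 4 of the 6, although their log2 fold changes stayed above 0. The count of nuclear genes called higher was 8 without vehicle replicate 1 or vehicle replicate 2, 4 without vehicle replicate 3, 5 without corticosterone replicate 1, 7 without corticosterone replicate 2 and 4 without corticosterone replicate 3.

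In complex I, Ndufa4 rose from 3894, 3594 and 3688 to 4813, 4200 and 4556 (log2 fold change 0.28 ± 0.05, limma adjusted p = 8.54e-04). The accessory subunit Ndufc2 rose from 865, 979 and 732 to 1026, 1172 and 1045 (0.34 ± 0.09, limma adjusted p = 0.0106). In Ndufc2 the lowest treated library exceeded the highest vehicle library by a small margin. Ndufs4, an accessory subunit of the NADH-oxidizing part, and Ndufb10, of the membrane arm, were higher by 0.24 and 0.16 on the log2 scale.

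Of the core subunits of complex I, which include those that carry its flavin and iron-sulfur clusters, 6 are given here, and none passed the test. Their log2 fold changes were 0.02 for Ndufs1, 0.12 for Ndufs3, 0.003 for Ndufs7, 0.05 for Ndufs8, -0.06 for Ndufv1 and 0.08 for Ndufv2, with SE of 0.05 to 0.07. In Ndufs3 the groups did not overlap all the same, at 1103, 1048 and 1108 with vehicle and 1209, 1171 and 1172 with corticosterone. Ndufb2 had the lowest log2 fold change of complex I, -0.24, with 204 to 251 against 179 to 200 normalized reads, and missed the threshold (limma adjusted p = 0.149).

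Ndufa12, an accessory subunit near the NADH-oxidizing part (chr10:94198720-94221443, plus strand), had the largest fitted change and the widest replicate spread of the 77 nuclear genes with a mean of at least 10. It was at 268, 265 and 272 with vehicle and at 260, 567 and 777 with corticosterone. The first treated library lay below all vehicle libraries, and the others far above them. The log2 fold change was 0.86 ± 0.25 (limma adjusted p = 0.0247). The processed pseudogene Gm15920 on chromosome 5 matches its transcript at 400 of 402 aligned bases. The Ndufa12 transcript is 1110 bases long, and 30% of its 31-base words also occur in transcripts of other genes. A window of the aligned part with a difference, in capitals, is shown (gene at transcript positions 136 to 225, copy at chr5:130188404-130188493, plus strand).
Ndufa12: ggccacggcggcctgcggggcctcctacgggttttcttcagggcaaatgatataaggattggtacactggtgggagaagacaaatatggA
Gm15920: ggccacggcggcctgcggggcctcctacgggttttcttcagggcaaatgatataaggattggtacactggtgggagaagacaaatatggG

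Reads assigned to Gm15920 moved the other way, from 437, 332 and 381 to 343, 225 and 164. The sum of both was 705, 597 and 653 with vehicle and 603, 792 and 940 with corticosterone. The groups overlapped, and the log2 fold change of the sum was 0.24 ± 0.12 (limma adjusted p = 0.212). Whether reads were divided between the 2 loci in counting was not tested.

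Complex II, which is also the succinate dehydrogenase of the citric acid cycle, had no called gene by limma, edgeR or DESeq2, and 0 at an unadjusted p under 0.05. The flavoprotein gene Sdha was at 3381, 3034 and 3205 with vehicle and 3112, 3174 and 3370 with corticosterone. The iron-sulfur subunit Sdhb and the membrane anchors Sdhc and Sdhd had log2 fold changes of -0.03 ± 0.06, -0.02 ± 0.04 and 0.03 ± 0.05 (SE, n = 3 per group). In all 4 genes the groups overlapped.

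In the remainder of complex III, Uqcrq, which sits in the membrane part, rose by a log2 fold change of 0.17 ± 0.05 (limma adjusted p = 0.0289). Cyc1, cytochrome c1, was at 2613, 2821 and 2633 with vehicle and 2775, 3199 and 2921 with corticosterone (0.14 ± 0.05, limma adjusted p = 0.0978). Uqcr10 did not overlap between groups, at 289, 333 and 321 against 396, 374 and 349, and missed the threshold (0.25 ± 0.08, limma adjusted p = 0.0540). Uqcrfs1, the Rieske iron-sulfur protein, had a log2 fold change of -0.003.

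In complex V, the genes of the catalytic head and central stalk moved by 0.16 or less on the log2 scale. Atp5a1, the alpha subunit, rose from 11322, 10741 and 10951 to 12117, 11945 and 12404 (log2 fold change 0.14 ± 0.04, limma adjusted p = 0.0134). Its partner Atp5b was at 20442 to 21421 and 21365 to 22325, groups that overlapped (0.07 ± 0.04, limma adjusted p = 0.302). The gamma subunit Atp5c1 rose by 0.15 ± 0.04 and the epsilon subunit Atp5e by 0.16 ± 0.05 on the log2 scale.

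Several subunits of complexes IV and V have isoforms from separate genes, and the cells expressed those of non-muscle tissue. Per kilobase, Cox4i1 was at 5935 normalized reads with vehicle and 6474 with corticosterone, and Cox4i2 at 0.702 and 2.56. Cox6a1 was at 11281 and 10898 per kb, and the heart and muscle form Cox6a2 at 3.34 and 1.80. Cox6b1 was at 2673 and 2514, and the testis form Cox6b2 at 0 and 1.26. Cox7a2 was at 1614 and 1583, and the muscle form Cox7a1 at 12.7 over all libraries. Cox7b2, the testis form of Cox7b, was at 2.40 and 4.73, against 1756 and 2072 for Cox7b. In raw terms, Cox4i2, Cox6a2, Cox6b2, Cox7a1 and Cox7b2 had 0 to 8 reads in any library, and none was called. Cox4i2 was called in 1 of the 6 fits that left out 1 library. With so few reads, changes in these genes could not be measured reliably at this depth.

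**Figure D3:**
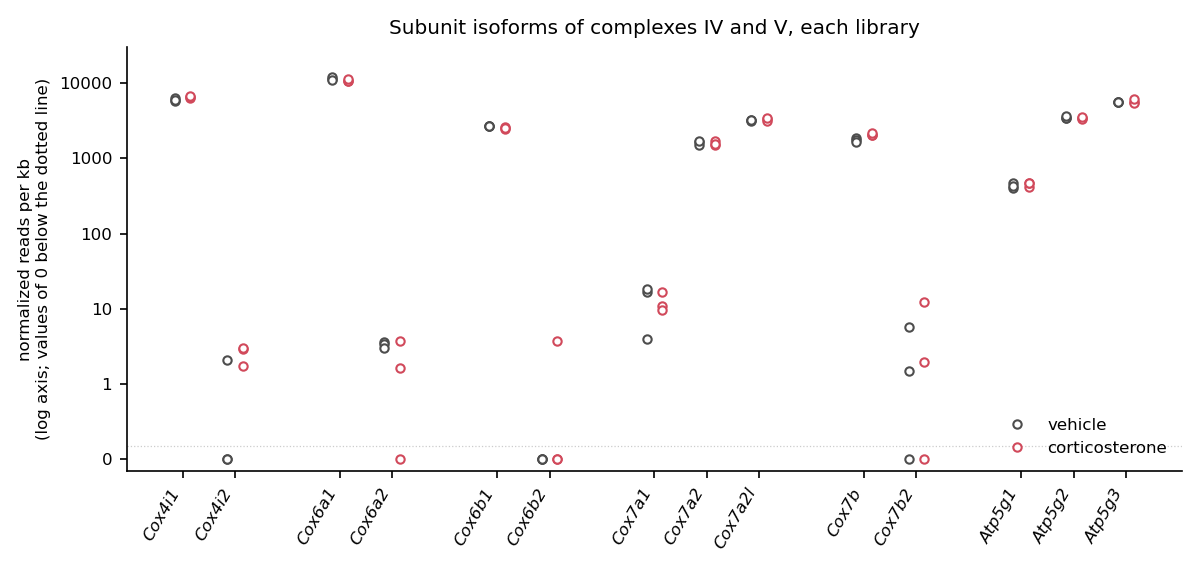
Normalized reads per kb of principal transcript (log axis) of isoform genes of complexes IV and V in each library, with values of 0 drawn below the dotted line. Cox4i2, Cox6a2, Cox6b2, Cox7a1 and Cox7b2 stay at or under 20 in every library, and the other isoforms lie above 300.

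Among the isoforms present, Cox7b rose from 1862, 1767 and 1645 to 2032, 2007 and 2184 (log2 fold change 0.24 ± 0.05, limma adjusted p = 4.96e-03). Cox6c, which has no such partner in the rule, rose from 2076, 2038 and 1885 to 2451, 2281 and 2277 (0.22 ± 0.05, limma adjusted p = 4.83e-03). Cox4i1 did not overlap between groups, at 4351, 4761 and 4509 against 4848, 4919 and 5090, and missed the threshold (0.13 ± 0.04, limma adjusted p = 0.0611). Cox6a1, Cox6b1, Cox7a2, Cox7a2l and Cox8a had log2 fold changes of -0.09 to 0.05. The 3 genes for the ring subunit c of ATP synthase encode the same mature protein, and Atp5g3, at 5653 per kb over all libraries, stood above Atp5g2 at 3470 and Atp5g1 at 442. This gap depends on the transcripts chosen, which are 723, 731 and 4715 bases long. Before division by length the means were 4087, 2536 and 2083 normalized reads. Of the 31-base words of Atp5g2, 87.7% also occur in transcripts of other genes. None of the 3 genes was called, with log2 fold changes of 0.02, -0.04 and 0.08. Ndufa4l2, a relative of Ndufa4 outside the rule, was at 0 to 1.28 normalized reads with corticosterone against 3.09 to 7.30 with vehicle and was not called (limma adjusted p = 0.125).

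Of the 13 mitochondrially encoded genes, 7 were called higher and 0 lower, where 8.49% of all genes were called higher and 8.2% lower. Of all genes with a mean of at least 500 normalized reads, 20.6% were called higher and 16.6% lower. At an unadjusted p under 0.05, 0 of the 13 were lower, edgeR called 7 higher and 0 lower, and DESeq2 6 and 0. The median log2 fold change was 0.23. The genes fell into 2 ranges of expression, with 7 genes at means of 29128 to 438767 normalized reads and 6 at 36.5 to 3344. All 7 abundant genes had log2 fold changes above 0, and 6 of them were called. These 7 genes lie on 1 circular genome and, apart from mt-Nd6 on the opposite strand, are cut from long shared transcripts, so they are not independent of each other.

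**Figure D4:**
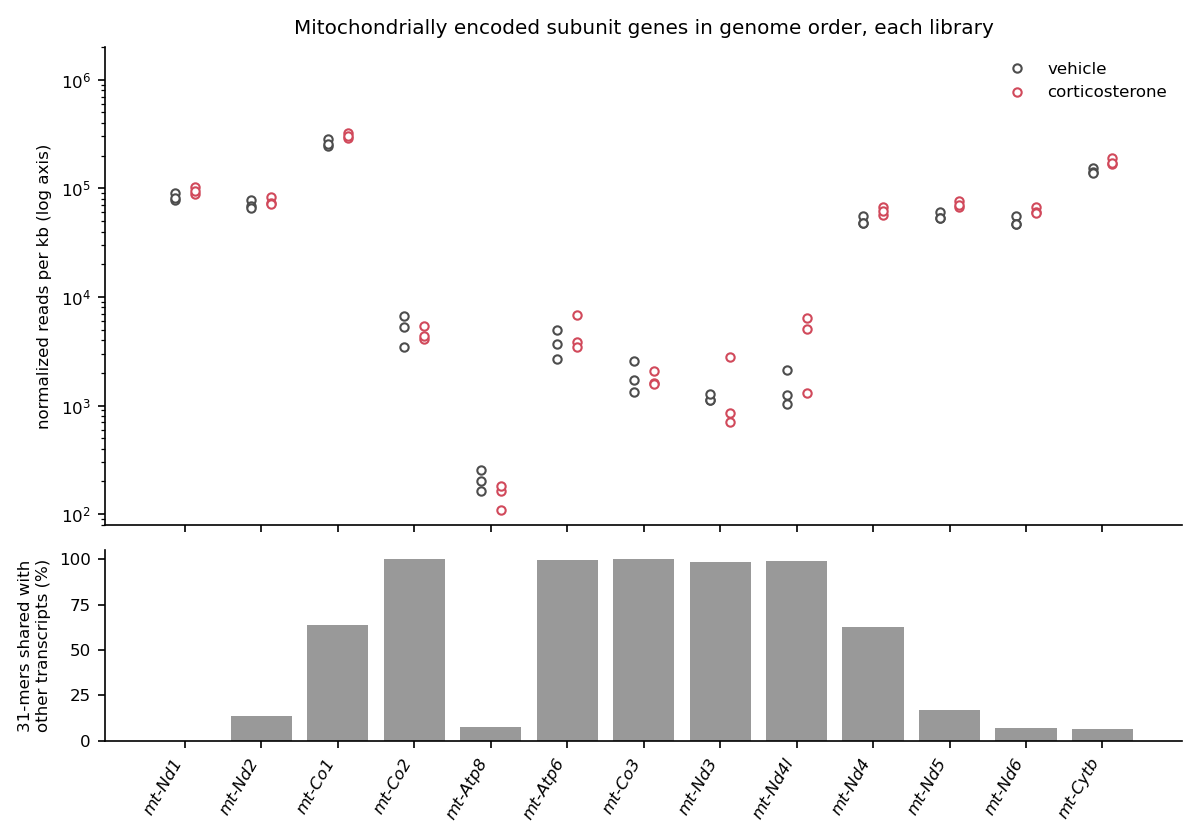
Normalized reads per kb (log axis, upper panel) of the 13 mitochondrially encoded subunit genes in each library, in genome order, and the share of their 31-base words found in transcripts of other genes (lower panel). mt-Co2, mt-Atp6, mt-Co3, mt-Nd3 and mt-Nd4l, at 98.1% to 100%, lie well below mt-Co1 and scatter widely between replicates, and so does mt-Atp8 at 7.47%.

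Among the genes of complex I, mt-Nd5 rose from 111457, 97566 and 97340 to 139921, 123011 and 127085 (log2 fold change 0.35 ± 0.06, limma adjusted p = 2.79e-04). mt-Nd4 rose from 77198, 66404 and 65526 to 92026, 78073 and 85206 (0.29 ± 0.06, limma adjusted p = 3.62e-03). mt-Nd6, on the opposite strand, rose from 28990, 24383 and 24182 to 35238, 31106 and 30867 (0.33 ± 0.06, limma adjusted p = 1.37e-03). All treated libraries of these 3 genes lay above all vehicle libraries, in mt-Nd4 by a narrow margin. mt-Nd5 and mt-Nd6 overlap at their ends on opposite strands, and whether counting used the strand is not given in the sources used here.

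mt-Nd1 was at 86667, 74243 and 77682 with vehicle and 97723, 85622 and 90056 with corticosterone. The second treated library lay below the first vehicle library, and the log2 fold change was 0.20 ± 0.06 (limma adjusted p = 0.0233). mt-Nd2 was at 80498, 71023 and 68476 against 86989, 76500 and 74922, with overlapping groups, and was not called (0.12 ± 0.06, limma adjusted p = 0.254). In complexes III and IV, mt-Cytb, cytochrome b, rose from 177276, 161618 and 159328 to 218173, 192184 and 196352 (0.28 ± 0.05, limma adjusted p = 1.12e-03). mt-Co1 rose from 436441, 376828 and 398412 to 502742, 445323 and 472855 (0.23 ± 0.06, limma adjusted p = 9.93e-03). In both the groups did not overlap in normalized reads.

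The first library of each group held the highest values of these genes. None of the 7 mitochondrial calls stayed in all fits without 1 library: 2 genes were called higher without vehicle replicate 1, 1 without corticosterone replicate 2, and 0 without vehicle replicate 2, vehicle replicate 3, corticosterone replicate 1 or corticosterone replicate 3. All 7 log2 fold changes stayed above 0 in these fits. Without a trend of the variance on the mean, limma called 0 of the 13.

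Together the mitochondrially encoded subunit genes took 5.11%, 4.45% and 4.55% of counted reads with vehicle and 5.81%, 5.16% and 5.31% with corticosterone. The 95% Wilson intervals of these shares, which cover counting error only, reached at most 0.0110 percentage points to either side. The means were 4.70% ± 0.355 and 5.43% ± 0.344 (SD, n = 3). The groups did not overlap, and a two-sided exact permutation test gave p = 0.1, the smallest that 3 against 3 allows. The 82 nuclear genes took 0.810% ± 0.0110 and 0.838% ± 0.0126 (SD, n = 3, two-sided exact permutation p = 0.1). mt-Co1 alone took 2.04% ± 0.155 and 2.33% ± 0.133 (SD, n = 3, two-sided exact permutation p = 0.2). Its shares overlapped between groups, at 2.2115% in vehicle replicate 1 and 2.2082% in corticosterone replicate 2.

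The 5 mitochondrial genes mt-Co2, mt-Atp6, mt-Co3, mt-Nd4l and mt-Nd3 share 98.1% to 100% of their 31-base words with other annotated transcripts, and for each the gene that shares most lies in a copied stretch of the mitochondrial genome on chromosome 1. mt-Co2, the copper-binding subunit 2 of complex IV, matches the pseudogene Gm28661 at 681 of 681 aligned bases. The first 90 bases of each are shown because they are the same (gene at chrM:7013-7102, plus strand, copy at chr1:24615476-24615565, minus strand).
mt-Co2: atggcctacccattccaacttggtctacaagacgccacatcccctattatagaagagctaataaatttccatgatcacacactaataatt
Gm28661: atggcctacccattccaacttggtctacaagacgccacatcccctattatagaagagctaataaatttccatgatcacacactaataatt

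mt-Co1 also has nuclear copies. Gm29216 on chromosome 1 (chr1:24615706-24616197, minus strand) shares 29.6% of the 31-base words of mt-Co1 and was not aligned here. Gm13340 on chromosome 2 shares 45.2% and differs at scattered bases, with 1508 of 1545 identical. The 90 bases with the most differences between mt-Co1 and Gm13340, in capitals, are shown for contrast (gene at chrM:5772-5861, plus strand, copy at chr2:22589114-22589203, minus strand).
mt-Co1: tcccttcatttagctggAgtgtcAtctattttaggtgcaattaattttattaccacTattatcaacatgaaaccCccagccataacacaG
Gm13340: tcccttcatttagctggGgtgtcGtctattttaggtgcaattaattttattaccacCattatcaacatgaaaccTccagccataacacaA

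The 5 genes with nearly all words shared were also low, but sharing alone did not order the levels: mt-Co1 and mt-Nd4, with 63.9% and 62.8% shared, were abundant. Per kilobase, mt-Co1 was at 261420 normalized reads with vehicle and mt-Co2 at 5136, although both are subunits of the same complex. The copy Gm28661 held 2706, 2125 and 2068 normalized reads with vehicle and 2605, 1966 and 2908 with corticosterone, against 4551, 3616 and 2371 and then 3723, 2787 and 3014 for mt-Co2 itself. Summed with its copies, mt-Co2 still reached only 4442 to 7267. mt-Atp8, which shares 7.47% of its words, mostly with the neighbouring mt-Atp6, was low as well, at 33.1 to 51.7 and 22.5 to 37.1.

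**Figure D5:**
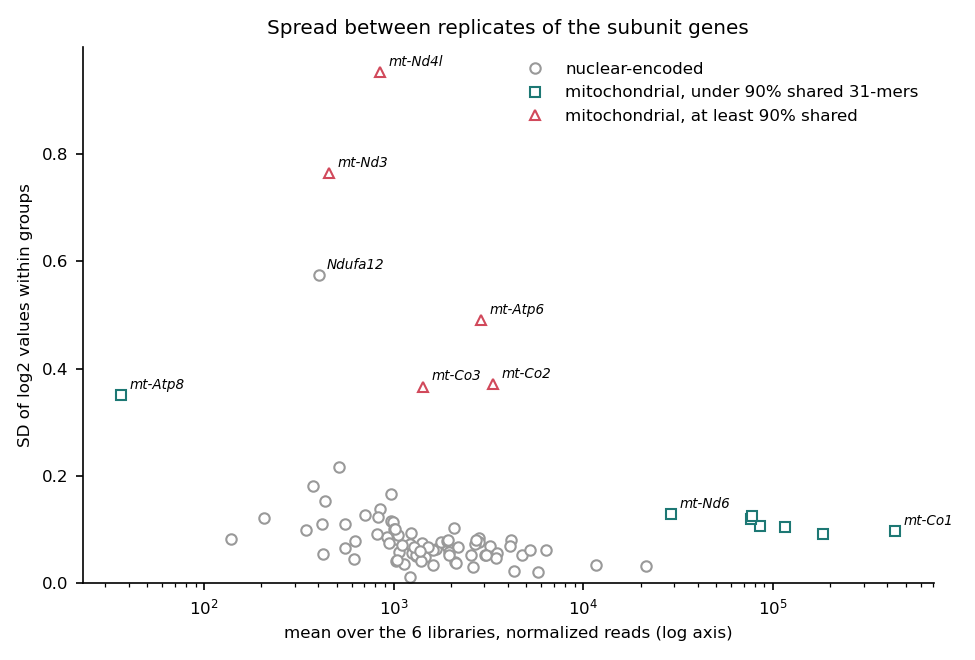
SD of log2 values within groups (y axis, pooled over both groups of 3) against the mean of the 6 libraries (x axis, log scale) for the 77 nuclear genes with a mean of at least 10 and the 13 mitochondrial genes. The 5 mitochondrial genes with at least 90% shared words lie between 0.366 and 0.952, against a median of 0.0695 for the nuclear genes.

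The replicates of these 5 genes scattered too much to compare the groups. Their within-group SD on the log2 scale was 0.366 to 0.952, against 0.0911 to 0.129 for the 7 abundant mitochondrial genes. mt-Nd4l was the 1 member called among them, at 309, 374 and 625 with vehicle and 1502, 387 and 1897 with corticosterone. Its second treated library lay among the vehicle libraries (log2 fold change 1.31 ± 0.40, limma adjusted p = 0.0320). mt-Nd3 was at 388, 391 and 444 against 298, 966 and 243, where the second treated library alone was high. Its log2 fold change was 0.02, and without corticosterone replicate 2 it was -0.60 and called (limma adjusted p = 0.0420). mt-Co2, mt-Co3 and mt-Atp6 had log2 fold changes of -0.11, -0.05 and 0.30, none of them called. How multiply mapped reads were treated is not given in the sources used here, and its part in these values was not tested.

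Genes around the complexes were counted in lists, of which 129 genes had values. Of these, 11 were called higher (8.53%) and 3 lower (2.33%), against 8.49% and 8.2% of all genes. The median log2 fold change of the 129 was 0.06. Among them, 124 had a mean of at least 10 normalized reads. At that level, 14.2% of all genes were called higher and 13.5% lower. Of 52 assembly factors, 2 were called higher (3.85%) and 1 lower (1.92%). Ecsit, a complex I assembly factor, rose from 295, 283 and 310 to 383, 401 and 357 (0.36 ± 0.08, limma adjusted p = 4.39e-03), and Ndufaf4, of the same complex, by 0.28 ± 0.08. Atpaf1, which chaperones the beta subunit of ATP synthase, fell from 279, 273 and 282 to 221, 218 and 209 (-0.37 ± 0.09, limma adjusted p = 6.15e-03). The groups were apart in these 3 genes, where 29.6% of all genes were apart.

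Among 11 regulators of mitochondrial biogenesis with values, 1 was called higher and 1 lower (9.09% each). These shares were near those of all genes, 8.49% higher and 8.2% lower. Of the 11, 9 had a mean of at least 10, where 14.2% of all genes were called higher and 13.5% lower. Ppargc1b, a transcriptional coactivator of respiratory genes, rose from 52.7, 47.1 and 48.6 to 73.9, 89.5 and 90.8 (0.77 ± 0.18, limma adjusted p = 5.24e-03). Perm1, a muscle-enriched factor of the same pathway, fell from 17.0, 24.7 and 23.8 to 9.64, 6.63 and 8.96 (-1.37 ± 0.42, limma adjusted p = 0.0336). The better known coactivator Ppargc1a was at 0.811 to 2.56 in all libraries, below the level of 3 reads. The transcription factors Nrf1, Gabpa and Esrra had log2 fold changes of -0.02, -0.08 and 0.09, and Tfam, which packages and transcribes mitochondrial DNA, 0.06, none of them called.

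Of 26 genes for maintenance of mitochondrial DNA and RNA, 1 was called higher (3.85%) and 0 lower, against 8.49% and 8.2% of all genes. All 26 had a mean of at least 10, where 14.2% of all genes were called higher and 13.5% lower. Lrpprc, which stabilizes mitochondrial mRNAs, rose from 1536, 1534 and 1514 to 1711, 1784 and 1709 (0.18 ± 0.05, limma adjusted p = 0.0108). In the citric acid cycle, 4 of 14 genes (28.6%) were called higher, against 20.6% of all genes with a mean of at least 500, a level that all 14 passed. Called lower by limma were 0 (0 also by edgeR and DESeq2, and at an unadjusted p under 0.05). The largest change was in Idh3a, the catalytic subunit of the NAD-dependent isocitrate dehydrogenase, from 1683, 1459 and 1590 to 2426, 2334 and 2449 (0.61 ± 0.05, limma adjusted p = 4.04e-07). Its partner subunit Idh3b rose by 0.17 ± 0.05 and Suclg1, of succinyl-CoA ligase, by 0.20 ± 0.05.

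Among 26 electron carriers, inner membrane carriers and related genes, 3 were called higher (11.5%) and 1 lower (3.85%), against 8.49% and 8.2% of all genes. Of the 26, 23 had a mean of at least 10, where 14.2% of all genes were called higher and 13.5% lower. Slc25a3, which brings phosphate into the matrix for ATP synthesis, rose from 11199, 11472 and 11196 to 13393, 12889 and 13202 (0.22 ± 0.04, limma adjusted p = 3.11e-04). Coq3, an enzyme of ubiquinone synthesis, rose by 0.22 ± 0.07. Higd1a, a small protein that associates with complexes III and IV, was called lower (-0.37 ± 0.12, limma adjusted p = 0.0374), with overlapping groups. Of the genes named from these lists, Idh3a, Ppargc1b, Lrpprc, Slc25a3 and Atpaf1 were called in all 6 fits that left out 1 library. The call of Ecsit was lost without corticosterone replicate 1 (limma adjusted p = 0.0559). Those of Perm1, Ndufaf4 and Idh3b were lost whichever library was left out, with limma adjusted p of up to 0.119, 0.191 and 0.112. Among these 6 fits, Suclg1 was called only in that without corticosterone replicate 3, Coq3 only without corticosterone replicate 1 and Higd1a only without vehicle replicate 2.

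Promoters were matched for 67 of the 82 nuclear genes (RefSeq, GRCm38.p6, 250 bases before to 50 after the start), 12 of them called. The motif of nuclear respiratory factor 1, GCGCANGCGC on either strand, was in 17 (25.4%) of the 67 genes and in 5.19% of 27025 genes. The ETS family motif CCGGAAG was in 16 (23.9%) and 9.93%, and the YY1 motif AAGATGG in 11 (16.4%) and 7.28%. The GC box GGGCGG was in 28 (41.8%) and 38.2%. The 27025 genes were not matched to the subunit genes for expression, gene type or base content. The palindromic glucocorticoid motif GNACANNNTGTNC was in 0 of the 67 and 0.537% of all genes, which says only that these letters were not in these windows.

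Among the subunit genes with a promoter, the nuclear respiratory factor 1 motif was in 2 of 12 called genes (Atp5c1 and Uqcrc1) and 15 of 55 others, and the ETS motif in 3 of 12 (Atp5e, Atp5l and Uqcrh) and 13 of 55. The 120 bases before the RefSeq start are shown for Uqcrh, Atp5e and Atp5c1, called genes with a match there (Uqcrh at chr4:116075071-116075190, Atp5e at chr2:174464102-174464221 and Atp5c1 at chr2:10080433-10080552, all minus strand). Capitals mark only the ETS match in Uqcrh and Atp5e and the nuclear respiratory factor 1 match in Atp5c1. GENCODE places the start of Atp5c1 at chr2:10080510, inside this stretch, so its match lies past that start. In Uqcrh and Atp5e the ETS motif reads on the strand opposite to the gene.
Uqcrh: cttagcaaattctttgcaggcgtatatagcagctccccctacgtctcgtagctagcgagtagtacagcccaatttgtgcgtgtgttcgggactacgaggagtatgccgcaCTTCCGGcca
Atp5e: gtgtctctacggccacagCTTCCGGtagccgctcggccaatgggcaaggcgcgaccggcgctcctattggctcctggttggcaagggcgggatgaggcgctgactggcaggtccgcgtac
Atp5c1: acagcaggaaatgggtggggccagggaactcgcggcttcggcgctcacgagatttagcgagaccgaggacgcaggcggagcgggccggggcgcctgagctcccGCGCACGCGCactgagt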

How the data were processed

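The labels give total RNA from MC3T3-E1 cells, a NEB Next Ultra library kit and Illumina sequencing. The submitters' processing notes name the build mm10. The aligner, counter, their versions and the strand setting are not given in the sources used here. The authors deposited 1 table whose name says FPKM. The signal values that the authors deposited equal whole reads per gene divided by 1 size factor per library. Within a tolerance of 0.001, 100% of values gave whole reads. The planned design assumed FPKM and was kept.

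The members, lists and tests were chosen with earlier results of these data known. Genes were matched to GENCODE M21 (24008 matched). limma 3.58.1 in R 4.3.3 was fitted across all genes with a variance trend on log2(value + 0.1), with a mean of at least 0.1 (no gene removed, 24016 tested) and Benjamini-Hochberg adjustment. A gene was called at an adjusted p under 0.05. Fold changes are differences of mean log2(value + 0.1), so for genes near 0 reads they depend on the pseudocount and can differ from the fold of the means. Percentage changes are of group means. Alternatives were other pseudocounts, filters, scalings, a length and GC correction, the replicate block, edgeR 4.0.16 and DESeq2 1.42.0 on the recovered reads, and leaving out each library. Summing members with their pseudogenes was added after seeing the data. A share of reads was compared with an exact permutation test (SciPy 1.17.1).

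The fits were tested on simulated data, in which the changed genes had a mean of at least 100 reads. Of 100 genes changed by a log2 fold change of 0.3, limma recovered 45 and edgeR 59. At 0.6 they recovered 92 and 95 of 100. Among unchanged genes, limma called 3 and edgeR 19. A gene that was not called may therefore have changed by 0.3. No libraries were duplicates. Depth was 16020401 to 25638645 reads.

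Named were all mitochondrial members, complex II, the 8 called nuclear genes with the largest changes in each direction, isoform sets, core subunits, and the 3 largest called changes per list with the main regulators. Ndufs4, Ndufb10, Uqcrq, Atp5e, Uqcr10, Ndufb2, Atp5s, the pseudogenes and the genes given only for their level were named after their values were seen. Gene lists were written by hand from textbook roles. Counts and medians cover all members. The values of 1 member are not reported here.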

Additional observations from a re-analysis of the deposited data

How the results depend on the processing

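Without a variance trend, limma called 873 genes higher and 760 lower over all genes, 2 nuclear and 0 mitochondrial subunit genes higher, and 2 genes of the context lists higher. The 2 nuclear genes called in all 16 alternatives were Atp5l and Cox5a, and all 22 called members kept log2 fold changes above 0 throughout. Scaling to the same total gave 9 nuclear and 7 context genes higher. The nuclear median log2 fold change was 0.0147 with that scaling, 0.0259 with the same total of nuclear genes, 0.0182 with quantile normalization and -0.0029 with the length and GC correction. Quantile normalization called 1 nuclear gene lower (Cox6a1) and 4 mitochondrial genes higher, with a mitochondrial median of 0.0576. The length and GC correction called 9 nuclear genes higher and 1 lower (Cox6b1), and 5 context genes lower. edgeR called 17 context genes higher, with or without the block.

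Replicate numbers 1 to 3 are shared between the groups, but same-numbered libraries did not deviate together (r of -0.04, 0.001 and 0.02 across 13880 genes). With the replicate block, 16 nuclear and 8 mitochondrial genes were called higher, and with the block and the length and GC correction 11 and 8, with 1 nuclear gene lower and a median of -0.0029.

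Leaving out 1 library gave 1304 to 1585 genes higher and 1058 to 1456 lower over all genes, 4 to 8 nuclear genes higher, 0 to 2 mitochondrial genes higher and 0 to 1 lower, and 6 to 9 context genes higher and 1 to 2 lower. The mt-Nd3 value of -0.597 without corticosterone replicate 2 reversed its direction, and its value was 0.399 without corticosterone replicate 3. The difference in the mitochondrial read share was 0.724 percentage points, and 0.530 to 0.927 without 1 library. Where no value shows it, the cause of these changes was not tested. Genes at or under 3 reads per library give no usable comparison at this depth.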

Other observations

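The genes of the mitochondrial ribosome, which translates the mitochondrially encoded subunits, were looked at after values were seen. Of 81 Mrpl and Mrps genes with values, 7 (8.64%) were called higher and 2 (2.47%) lower by limma, against 8.49% and 8.2% of all genes. The median of their means was 627 normalized reads. Of all genes with a mean of at least 500, 20.6% were called higher and 16.6% lower. The median log2 fold change of the 81 genes was 0.05, with 62 (76.5%) above 0. Over all genes 48.6% lay above 0, and 50.8% of those with a mean of at least 500. Mrpl34 rose from 480, 469 and 461 to 574, 572 and 623 normalized reads (0.33 ± 0.07, limma adjusted p = 2.06e-03) and Mrpl12 from 1275, 1245 and 1240 to 1516, 1478 and 1479 (0.25 ± 0.05, limma adjusted p = 1.21e-03). Mrpl39 fell from 400, 350 and 375 to 312, 314 and 324 (-0.24 ± 0.08, limma adjusted p = 0.0440) and Mrpl48 from 581, 554 and 554 to 480, 508 and 478 (-0.21 ± 0.07, limma adjusted p = 0.0405). The groups were apart in these 4 called genes, in 27.2% of the 81 and in 29.6% of all genes.

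The large mitochondrial ribosomal RNA mt-Rnr2 rose from 8237, 7879 and 7857 to 10049, 9694 and 8900 normalized reads (log2 fold change 0.26 ± 0.05, limma adjusted p = 6.86e-04). Its small partner mt-Rnr1 was at 3477, 3327 and 3444 against 3815, 3643 and 3481 (0.09 ± 0.04, limma adjusted p = 0.201). Over the 6 libraries mt-Rnr2 had a mean of 8769, against 438767 for mt-Co1. The part of library preparation in these levels was not tested. Usmg5, a small ATP synthase protein outside the naming rule, rose by 0.16 ± 0.05 (limma adjusted p = 0.0348), while Atpif1, the inhibitor of ATP synthase, was at 1088, 1223 and 1109 against 1006, 995 and 1043 and missed the threshold (-0.17 ± 0.06, limma adjusted p = 0.0612).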
